A study of Mus musculus with 6 samples.

Results

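Enzymes that make, convert and destroy eicosanoids were compared between the prefrontal cortex of BTBR and C57BL/6J mice. The genes were Alox8, Alox5, Alox5ap, Alox12, Alox12b, Ptgs1, Ptgds, Ptges, Hpgd and Ltc4s, and every non-control probe carrying one of these gene names was taken, which gave 15 probes of 10 genes among 41174 probes with 27373 gene names. The group was chosen by the measured strain difference of Alox8 and Hpgd in these same 6 arrays, with the other enzymes of the pathway added by name, so their strain differences are given as a description and no p-value is attached to them.

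The C57BL/6J group held 3 wild-type mice of that inbred strain, and the BTBR group held 3 mice with the genotype BTBR T+ Itpr3tf/J, an inbred strain that carries the tufted allele of Itpr3, is used as a model of autism and lacks a corpus callosum. The background field of the BTBR samples reads C57BL/6J, while their titles and genotype name BTBR. All 6 mice were male, 5 months old and without drug treatment, and RNA of the whole prefrontal cortex of each was hybridised to 1 one-colour array. Levels below are log2 signals relative to the array's 75th percentile of all non-control probes, so 0 is that percentile, and a difference of 1 is a factor of 2. Each level belongs to 1 probe, and levels of different probes are not comparable. Marker sums below add the linear signals of the brightest probe of each gene. The brightest genes therefore weigh most in a sum, and each sum is compared only between mice.

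Eicosanoids are short-lived signalling lipids made mainly from arachidonic acid, which phospholipases cut from membranes and which, in the brain, also arises from the breakdown of an endocannabinoid by monoacylglycerol lipase. Cyclooxygenases turn it into the precursor from which dedicated synthases make prostaglandins and thromboxane, and lipoxygenases turn it into hydroperoxides and leukotrienes. In the brain these lipids act in fever, sleep, blood flow, synaptic signalling and inflammation, and prostaglandin D synthase is one of the abundant secreted proteins of the cerebrospinal fluid.

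Since a probe reads 1 short stretch of a transcript, the probes on which the results turn are shown by their sequences, 5′ to 3′ and in the sense of the transcript, as the scanner files give them. For Alox8, Hpgd and the probe of Alox12 nearer the 3′ end, the first 30 of the 60 bases are given, and for the others all 60. No base is set in capitals, because no position within them is singled out.
Alox8 A_51_P430462: tccaggcattcaggggatataccagtagac
Hpgd A_51_P458781: ctcagactgcatctttactagtgtagcttt
Hpgd A_51_P458778: aagctcctttacaatggaaatatttagtaa
Alox12 A_52_P467449: acactccacattagtattctaactacaggg
Alox12 A_51_P520310: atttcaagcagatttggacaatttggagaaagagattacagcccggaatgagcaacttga
Alox12b A_51_P447258: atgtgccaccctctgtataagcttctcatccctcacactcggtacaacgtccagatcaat
Alox12b A_52_P316765: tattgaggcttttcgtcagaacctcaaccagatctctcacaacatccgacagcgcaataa

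Positions are in mm9, per the file headers, and the files do not state exon or UTR for a probe. The Alox8 probe (transcript NM_009661, from base 2670) lies at chr11:68997931-68997989 on the minus strand. The Hpgd probes (NM_008278, from bases 915 and 1274) lie at chr8:58799040-58799099 and chr8:58799399-58799458 on the plus strand and do not overlap. Those of Alox12b (NM_009659, from bases 1429 and 2157) lie at chr11:68979536-68979770 and chr11:68983104-68983163. The first of these spans 235 bases of genome, more than the 60 of the probe. The Alox12 probes (NM_007440, from bases 1946 and 2173) lie at chr11:70055942-70056001 and chr11:70055715-70055774.

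All 15 probes entered the comparison. On all 6 arrays, 14 of them stood well above background, and the exception, A_51_P520310 of Alox12, did so on 5. The array-wide threshold, a Benjamini-Hochberg adjusted p under 0.05 over 30011 probes in limma, was passed by 3 of the 15, the Alox8 probe and both Hpgd probes, against 5.44% of all probes. All 3 were lower in BTBR, a direction called for 3.25% of all probes, and 0 were higher, against 2.19%. The strain values did not overlap for 6 of the 15 probes, against 22.8% of all probes. The median difference was -0.26 over the 15 probes and 0.04 over all tested probes, and 9 of the 15 had the lower mean in BTBR. The choice of Alox8 and Hpgd was made on these same values, so nothing is read from these shares.

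**Figure D1:**
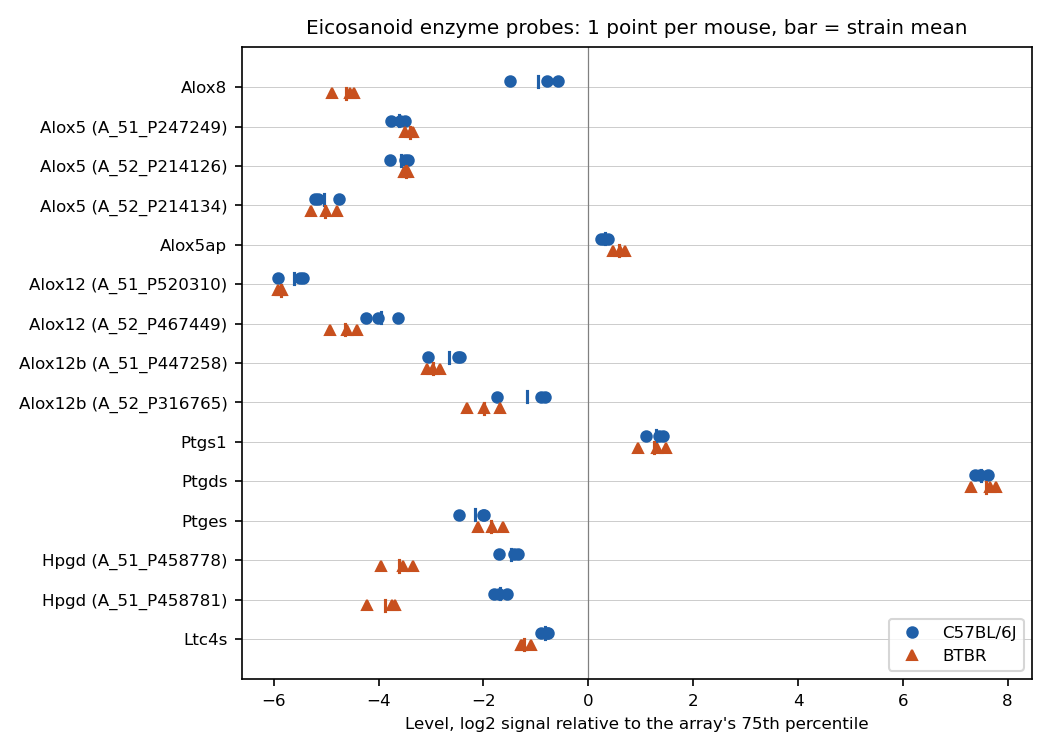
Level of each eicosanoid enzyme probe (log2 signal relative to the array's 75th percentile) with 1 point per mouse, circles for C57BL/6J and triangles for BTBR, and a vertical bar at each strain's mean. The BTBR points of Alox8 (-4.88 to -4.46) and of both Hpgd probes lie far below the C57BL/6J points, while the BTBR and C57BL/6J points of Alox5, Ptgs1 and Ptgds overlap in range.

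Alox8 encodes a lipoxygenase that oxygenates arachidonic and linoleic acid and is best known from mouse skin. Its levels were -0.57, -0.79 and -1.50 in C57BL/6J mice 1, 2 and 3 and -4.46, -4.88 and -4.54 in BTBR mice 1, 2 and 3. The strains lay far apart, and the lowest C57BL/6J mouse, mouse 3, was still well above the highest BTBR mouse. The mean was 12.7-fold lower in BTBR (log2 difference -3.67 ± 0.26 SE), falling from -0.96 ± 0.49 to -4.63 ± 0.23 (SD, n = 3). In this bulk RNA, fewer cells of a type and less RNA per cell cannot be told apart. The probe was still measured in BTBR, where its processed signals of 41.8, 29.1 and 51.0 were well above background on every array, against 1081, 717 and 427 in C57BL/6J. The lowest levels of any probe well above background on the BTBR arrays were -6.42, -5.83 and -6.92, all below the Alox8 levels there.

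The size of the Alox8 difference depended on the processing, whereas its direction did not. It was -3.99 on slide 1, which held mice 1 and 2 of each strain, and -3.04 on slide 2, which held mouse 3 of each. Normexp background correction, run with an offset of 50 added to each signal, gave -2.38 and the authors' own log2 values -1.70. That offset is of the size of the BTBR processed signals of Alox8 (41.8, 29.1 and 51.0). Its part in the smaller normexp differences, here and below, was not tested. The probe passed the array-wide threshold in all 19 alternatives with a test. These alternatives reuse the arrays by which Alox8 was chosen, so the count describes the processing only. Alox8 was read by 1 probe, so a difference in RNA and a strain variant within the stretch it binds cannot be told apart.

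Alox12b, which encodes the epidermal lipoxygenase that makes R-configured products for the skin barrier, lies next to Alox8 on chromosome 11. Its probe A_52_P316765 read -0.90, -0.83 and -1.74 in C57BL/6J and -1.99, -2.31 and -1.69 in BTBR. C57BL/6J mouse 3 lay with the BTBR mice, so the strains overlapped. The difference was -0.84 ± 0.29 over all mice, -1.28 on slide 1 and 0.05 on slide 2. The second probe, A_51_P447258, differed less. It read -2.48, -2.44 and -3.05 in C57BL/6J and -2.83, -3.08 and -2.96 in BTBR (difference -0.30 ± 0.19), and again mouse 3 of C57BL/6J lay with BTBR. Neither Alox12b probe passed the array-wide threshold. A_52_P316765 passed it with array weights (-1.05), on slide 1 alone (-1.28) and without C57BL/6J mouse 3 (-1.13). Within single arrays, A_52_P316765 exceeded A_51_P447258 by 1.58, 1.61 and 1.31 in C57BL/6J and by 0.85, 0.78 and 1.27 in BTBR, so the 2 probes did not move in step.

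Alox12 encodes the lipoxygenase of platelets. Its probe A_52_P467449 read -3.63, -4.02 and -4.24 in C57BL/6J and -4.93, -4.41 and -4.61 in BTBR. The strains did not overlap, by a narrow margin between C57BL/6J mouse 3 and BTBR mouse 2. This difference of -0.69 ± 0.21 (1.61-fold lower) did not pass the array-wide threshold except with array weights, and was -0.85 on slide 1 and -0.37 on slide 2. Probe A_51_P520310 read -5.45, -5.49 and -5.92 in C57BL/6J and -5.92, -5.85 and -5.86 in BTBR (-0.26 ± 0.15), with mouse 3 of C57BL/6J among the BTBR values. Platelet marker genes, summed over 6 of 6 measured genes as signal relative to the 75th percentile, were 1.49 to 1.78 in C57BL/6J and 1.13 to 1.31 in BTBR. Of these, Pf4 was called lower (-0.96 ± 0.16) and 3 of the 6 had higher means in BTBR, and their part in the Alox12 values was not tested.

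The leukotriene arm starts with Alox5, the lipoxygenase that makes leukotriene A from arachidonic acid. Its 3 probes differed by 0.20 ± 0.12, 0.09 ± 0.13 and 0.02 ± 0.18, and the strains overlapped in each. Probe A_51_P247249 read -3.59, -3.76 and -3.49 in C57BL/6J and -3.34, -3.38 and -3.50 in BTBR. Probe A_52_P214126, which shares 20 bases with it, read -3.50, -3.78 and -3.44 against -3.43, -3.50 and -3.51. Probe A_52_P214134, farther from the 3′ end, read -5.22, -5.16 and -4.76 against -5.28, -5.01 and -4.79. In A_51_P247249, BTBR mice 1 and 2 were above all C57BL/6J mice and BTBR mouse 3 just below the highest of them, and in the other 2 probes the strains overlapped more widely. With normexp correction the differences turned to -0.08, -0.14 and -0.32, in that order.

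Alox5ap encodes FLAP, the membrane protein that hands arachidonic acid to the Alox5 enzyme and is made mostly by microglia in the brain. It read 0.25, 0.37 and 0.30 in C57BL/6J and 0.60, 0.71 and 0.47 in BTBR. All 3 BTBR mice were above all 3 C57BL/6J mice, and the mean was 1.22-fold higher (0.28 ± 0.11), which did not pass the array-wide threshold. Its difference was 0.34 on slide 1 and 0.17 on slide 2, and it was called with the authors' own log2 values. Microglial marker genes summed to 17.4 to 21.8 in C57BL/6J and 20.8 to 23.1 in BTBR over 6 of 6 genes, with a median difference of 0.02 and 2 of the 6 lower in BTBR (Aif1 at -0.12 and C1qa at -0.10). Of the 6, Cx3cr1 was called higher by its brightest probe (1.22 ± 0.12) but not by its other probe (0.23 ± 0.13). Their part in the Alox5ap values was not tested.

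Ltc4s, the synthase that joins leukotriene A to glutathione to form leukotriene C, went the other way. It read -0.76, -0.91 and -0.79 in C57BL/6J and -1.10, -1.29 and -1.26 in BTBR. The strains did not overlap, and the mean was 1.32-fold lower (-0.40 ± 0.11), again short of the array-wide threshold. The difference was similar on both slides, -0.36 and -0.47, and passed the threshold only with the authors' own log2 values, among the 19 alternatives with a test.

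The strains overlapped for Ptgs1, Ptgds and Ptges, which make prostaglandins. Ptgs1, the constitutive cyclooxygenase, read 1.34, 1.42 and 1.10 in C57BL/6J and 1.49, 1.31 and 0.95 in BTBR (difference -0.04 ± 0.17). Mouse 3 had the lowest value in each strain. Ptgds, the synthase that makes prostaglandin D in oligodendrocytes, leptomeninges and choroid plexus, read 7.37, 7.47 and 7.63 in C57BL/6J and 7.78, 7.31 and 7.67 in BTBR (0.10 ± 0.16). The ranges of the strains overlapped, with BTBR mouse 2 the lowest and BTBR mouse 1 the highest of all, and the sign turned with the authors' own log2 values (-0.21). Ptges, the inducible synthase of prostaglandin E, read -1.99, -2.01 and -2.47 in C57BL/6J and -1.63, -1.84 and -2.11 in BTBR (0.30 ± 0.19), and BTBR mouse 3 lay below C57BL/6J mice 1 and 2.

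Markers of the cells that make Ptgds were set beside it. Oligodendrocyte markers summed to 138 to 171 in C57BL/6J and 101 to 113 in BTBR over 6 of 6 genes, while the Ptgds ranges overlapped. By their brightest probes all 6 had lower means in BTBR, Mobp by only -0.03 ± 0.14, and Mag was called (-0.93 ± 0.15). Other probes of Mag (-0.86 ± 0.16), Mog (-0.90 ± 0.11) and Mobp (-1.83 ± 0.26) were called lower. Among the other probes of these genes, only one of Mbp was higher in BTBR (0.47 ± 0.14, not called). Leptomeningeal fibroblast markers summed to 9.73 to 12.4 and 9.04 to 11.3 over 7 of 7 genes, with 0 called. The 4 choroid plexus genes that entered summed to 0.416 to 6.16 in C57BL/6J and 0.436 to 1.28 in BTBR. The highest was C57BL/6J mouse 1. Ttr, a defining gene of that tissue, was well above background on 2 of 6 arrays, so it did not enter and is not in the sum. It stood at 1.29 in C57BL/6J mouse 1, against -6.33 and -7.00 in the other C57BL/6J mice. Ptgds was lowest of the C57BL/6J mice in mouse 1 (7.37). It was highest of them (7.63) in mouse 3, whose choroid plexus sum of 2.03 came next. Among the BTBR mice, mouse 3 had the highest sum (1.28) and the highest Ttr. Its Ptgds of 7.67 lay between 7.31 in BTBR mouse 2 (sum 0.905) and 7.78 in BTBR mouse 1, which had the lowest BTBR sum (0.436). The part of these cells in the Ptgds values was not tested.

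Hpgd encodes the dehydrogenase that takes the first step in the inactivation of prostaglandins by oxidising their hydroxyl group. Probe A_51_P458781 read -1.79, -1.55 and -1.70 in C57BL/6J and -3.74, -3.68 and -4.23 in BTBR. The gap between the strains was far wider than the spread within either. The mean was 4.59-fold lower in BTBR (-2.20 ± 0.17), falling from -1.68 ± 0.12 to -3.88 ± 0.30 (SD, n = 3). Probe A_51_P458778 read -1.70, -1.34 and -1.41 in C57BL/6J and -3.53, -3.34 and -3.95 in BTBR, 4.36-fold lower (-2.12 ± 0.19). Both probes thus gave nearly the same difference, and both placed BTBR mouse 3 lowest and C57BL/6J mouse 2 highest. Inside each array A_51_P458781 minus A_51_P458778 was between -0.33 and -0.09.

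Unlike Alox8, Hpgd differed more on slide 2 (-2.53 and -2.54 for the 2 probes) than on slide 1 (-2.03 and -1.92). With normexp background correction the differences were -1.57 and -1.55 and neither probe passed the array-wide threshold, and with the authors' own log2 values they were -0.96 and -0.92 and both passed. The call held for A_51_P458778 in 18 of 19 and for A_51_P458781 in 17 of 18 alternatives with a test. As for Alox8, these alternatives reuse the arrays by which Hpgd was chosen, so the counts describe the processing only.

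**Figure D2:**
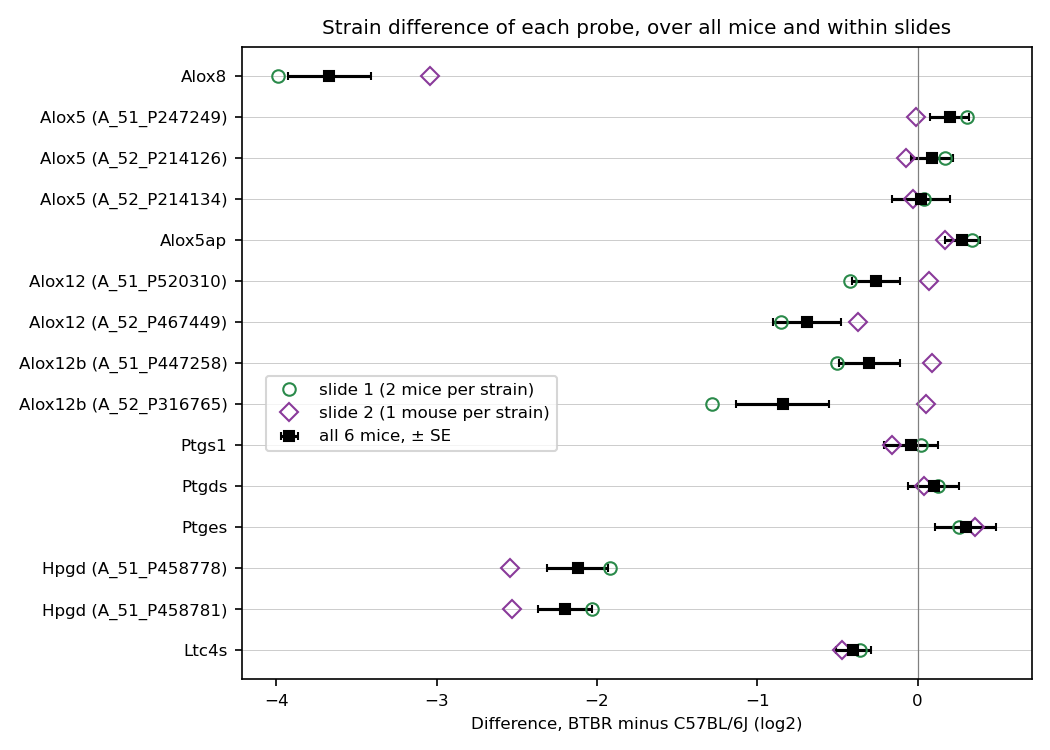
Difference of each eicosanoid enzyme probe, BTBR minus C57BL/6J on the log2 scale, as squares with the standard error of the fit over all 6 mice, open circles within slide 1 and open diamonds within slide 2. Alox8 and both Hpgd probes lie below 0 on both slides, whereas A_52_P316765 of Alox12b lies at -1.28 on slide 1 and 0.05 on slide 2.

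Alox8 and Alox12b share their place in the genome with Aloxe3, which encodes a partner enzyme of Alox12b in the skin barrier, and the surroundings of the Alox8 probe were therefore described. Aloxe3, chosen here after its values were seen, lies at -35.5 kb from the Alox8 probe and read -0.41, -0.37 and -0.54 in C57BL/6J and -0.86, -1.10 and -0.83 in BTBR (-0.49 ± 0.12, limma adjusted p = 0.0828). All BTBR values were below all C57BL/6J values, without passing the test except with the authors' own log2 values and with array weights. Within 250 kb of the Alox8 probe, 38 probes of other genes entered, with a median difference of 0.06, and 1 of them (2.63%) was called, against 5.44% of all probes. That probe belongs to Tmem88, a membrane protein of Wnt signalling, which lies 213 kb away and fell by 1.70 (± 0.27, adjusted p = 0.0173). The probes between Alox8 and Tmem88 and those beyond Aloxe3 were not called. Around Hpgd, 1 probe of another gene entered within the same distance, that of Cep44 (-0.58 ± 0.17, adjusted p = 0.134). The epidermal genes Krt1, Krt5, Krt10, Krt14, Lor and Flg, used as keratinocyte markers, summed to 4.95 to 8.22 in C57BL/6J and 4.43 to 5.23 in BTBR, with 0 of 6 called. The highest was C57BL/6J mouse 3, the C57BL/6J mouse with the lowest Alox8 and Alox12b values. Among the C57BL/6J mice, Krt10 (2.14 against 0.85 and 0.94), Krt1 and Lor were highest in mouse 3. Krt5 (-6.04 against -4.67 and -4.73) and Krt14 (-5.42 against -4.47 and -4.92) were lowest there, and Flg lay between. The part of such cells in the Alox8 and Alox12b values was not tested.

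**Figure D3:**
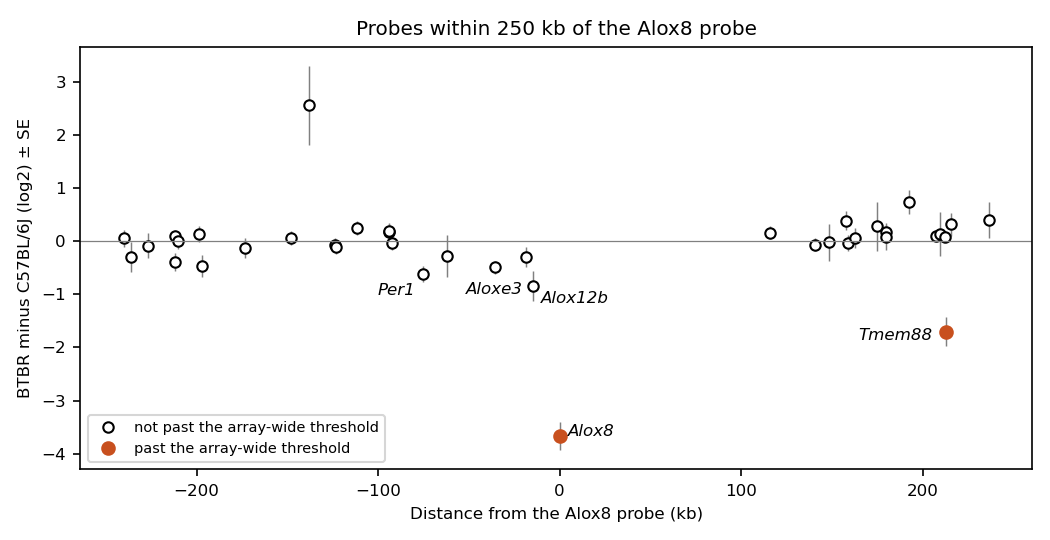
Difference between the strains (log2, BTBR minus C57BL/6J, with the standard error) of every tested probe within 250 kb of the Alox8 probe, by its distance in kb. Filled points passed the array-wide threshold, and these were Alox8 at -3.67 and Tmem88 at -1.70.

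The other genes of the pathway came from a list of 58 genes in 7 roles, of which 52 had a probe that entered. Counted by the brightest probe of each gene, 4 of the 52 passed the test over all probes (7.69%), 1 higher and 3 lower in BTBR, against 5.25% of all 16053 named genes (2.02% higher and 3.23% lower). The median difference over the 52 was -0.04, against 0.01 over all named genes. Among the genes not called were the monoacylglycerol lipase gene Mgll (-0.13 ± 0.21) and the phospholipase gene Pla2g4a (-0.22 ± 0.14). The counts by role below rest on few genes each, so nothing is read from them about a role. With normexp background correction 0 of the 52 passed in limma (5 at an unadjusted p under 0.05), and leaving out C57BL/6J mouse 1 left 1. Without C57BL/6J mouse 2, BTBR mouse 1 or BTBR mouse 2 the count was 2 each.

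Among receptors, Cmklr1, which binds chemerin and a lipid mediator of the resolvin family, read -1.90, -2.04 and -2.28 in C57BL/6J and -3.88, -3.93 and -4.36 in BTBR. It fell 3.95-fold (-1.98 ± 0.17, limma adjusted p = 0.00148), with no overlap between the strains. Normexp correction ended the call (-1.30, adjusted p = 0.22), while over all alternatives the adjusted p ran from 0.000237 to 0.22. Cmklr1, like Cysltr2 and Mgst2 below, was read by 1 probe. For these, as for Alox8, a difference in RNA and a strain variant within the probe's stretch cannot be told apart. Cysltr2, a receptor for cysteinyl leukotrienes such as those that Ltc4s gives rise to, rose 1.71-fold, from -5.82, -5.76 and -5.45 to -4.77, -4.91 and -5.02 (0.77 ± 0.14, limma adjusted p = 0.0285). That call held in 10 of 19 alternatives and was lost without C57BL/6J mouse 1 or 2 or BTBR mouse 1 or 2 (adjusted p 0.0877 to 0.133, range over all alternatives 0.00263 to 0.971), and with normexp the sign turned (-0.11). The related receptor gene Cysltr1 differed by -0.24 ± 0.17 and the leukotriene B receptor gene Ltb4r1 by -0.85 ± 0.30, neither past the test. None of the 8 prostanoid receptor genes that entered was called by limma, against 5.25% of all named genes. The widest difference was in the prostacyclin receptor gene Ptgir (-0.32 ± 0.13, limma adjusted p = 0.284). The other Ptgir probe differed by 0.13 ± 0.19.

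Among enzymes that release arachidonic acid, 1 of 12 passed, against 5.25% of all named genes. Pla2g4b, a cytosolic phospholipase, read -1.92, -2.22 and -1.72 in C57BL/6J and -2.91, -2.83 and -2.94 in BTBR, and fell 1.92-fold (-0.94 ± 0.15, limma adjusted p = 0.0175). Its second probe fell alike (-0.91 ± 0.16, adjusted p = 0.0247). Among the settings in which that call did not hold were normexp, slide 1 alone and the fits without C57BL/6J mouse 1 or any 1 BTBR mouse (adjusted p 0.0513 to 0.5, range over all alternatives 0.00876 to 0.5). Pla2g4e, a relative that makes precursors of endocannabinoids, had the widest difference of this role and read -0.83, -1.07 and -2.09 against 0.08, -0.11 and 0.37 (1.44 ± 0.34, adjusted p = 0.0683). It passed in 4 of 19 alternatives, among them the one without C57BL/6J mouse 3, the lowest of its strain (1.06, adjusted p = 0.0398, range over all alternatives 0.0146 to 0.369).

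In the leukotriene arm 1 of 6 other genes passed, against 5.25% of all named genes. Mgst2, a membrane glutathione transferase that can also form leukotriene C, fell 1.56-fold (-0.64 ± 0.12, limma adjusted p = 0.0325), from -3.56, -3.66 and -3.68 to -4.43, -4.12 and -4.28. The strains did not overlap, but the call held in 7 of 19 alternatives and remained in 1 of the 6 with a mouse left out, that without BTBR mouse 2. With slide as a block it was lost (adjusted p = 0.0538, over all alternatives 0.00588 to 0.962). Lta4h, which turns leukotriene A into leukotriene B, differed by 0.05 ± 0.14.

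Among the 9 other genes of prostanoid synthesis none was called by its brightest probe, against 5.25% of all named genes. The prostacyclin synthase gene Ptgis had the widest difference (-1.19 ± 0.30, limma adjusted p = 0.0912) and passed without BTBR mouse 1 (-1.48, adjusted p = 0.044, range over all alternatives 0.044 to 0.962). Ptgs2, the inducible cyclooxygenase and a gene switched on by neuronal activity, is named after its values were seen. Its brighter probe did not pass (0.72 ± 0.22, adjusted p = 0.159), while its other probe read -2.83, -2.69 and -3.04 in C57BL/6J and -1.61, -1.86 and -2.19 in BTBR and was higher past the test (0.96 ± 0.18, adjusted p = 0.0322).

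Of the 8 genes of uptake, export and further breakdown 0 were called by limma, against 5.25% of all named genes. The prostaglandin transporter gene Slco2a1, which carries prostaglandins into the cell where Hpgd acts, differed by -0.88 ± 0.20 by its brighter probe (adjusted p = 0.065) and by 0.12 ± 0.27 by its other one. Its brighter probe passed in 3 of 19 alternatives, and the adjusted p ran from 0.0439 to 0.953 over all of them. Among the other lipoxygenases, Alox12e read -5.25, -6.09 and -4.56 against -6.23, -5.33 and -7.46, with wide overlap (-1.04 ± 0.60, adjusted p = 0.477). Alox15 was not well above background on any array.

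**Figure D4:**
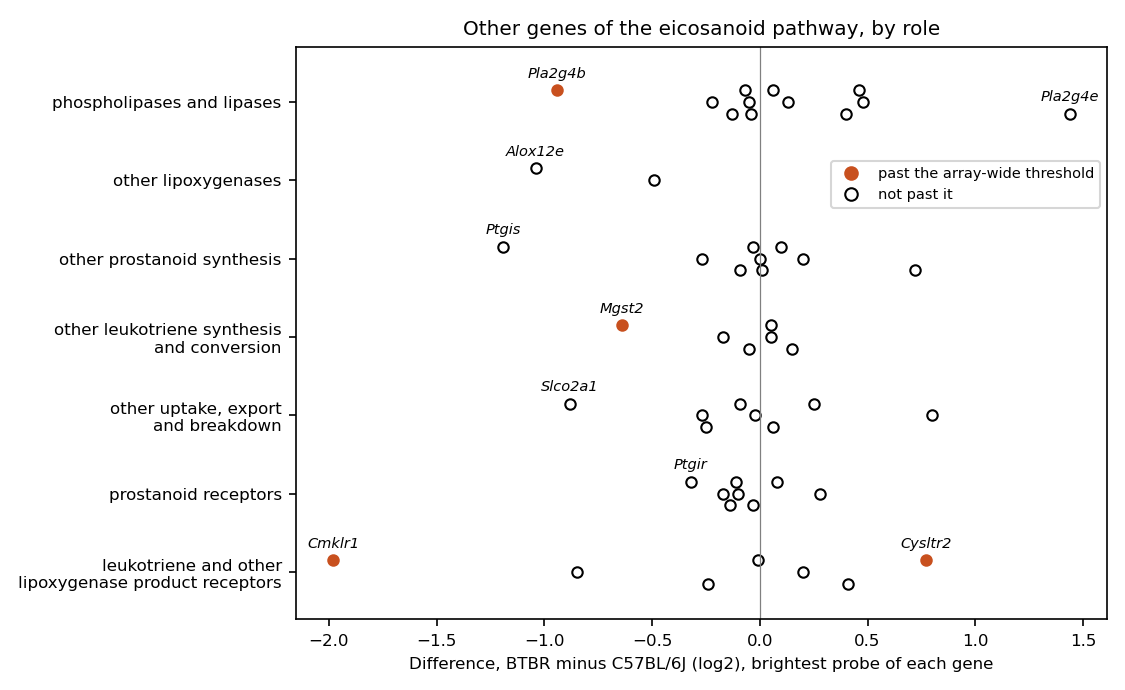
Difference between the strains (log2, BTBR minus C57BL/6J) of the brightest probe of each of the 52 other eicosanoid pathway genes that entered, 1 point per gene, by role. Filled points passed the test over all probes and are Pla2g4b, Mgst2, Cmklr1 and Cysltr2, and the widest difference of each role is named.

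The probes most alike to Alox8 over the 6 arrays, among 23736 named probes well above background on all of them, were those of Vps13d (Pearson r = 0.9996), Nefl (0.9995) and Ccl19 (0.9988). Their differences between the strains were -0.53, -1.77 and -1.34. For Hpgd, Nat8f5 (0.9991), Mill2 (0.9988) and Fam89a (0.9987) were most alike to probe A_51_P458778, and Rlbp1 (0.9989), Bmp2k (0.9973) and Fam89a (0.9972) to A_51_P458781. All these probes share the 6 arrays and a lower level in BTBR, and r exceeded 0.95 for 528 probes with Alox8 and for 431 and 466 with the 2 Hpgd probes.

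The 75th percentile signal, to which each array was scaled, was 1209 to 1607 on the C57BL/6J arrays and 859 to 1184 on the BTBR arrays, without overlap, and the part of overall signal in the differences was not tested beyond the scaling alternatives. Between 68.2% and 74.5% of probes were well above background, no spot was saturated, and each of the 6 neuronal markers exceeded background in all mice, with summed levels of 198 to 224 in C57BL/6J and 216 to 234 in BTBR. Astrocyte markers summed to 28.0 to 30.5 and 25.8 to 28.0, with 4 of 5 lower in BTBR, a median of -0.04, and Gfap called lower by its brightest probe (-1.21 ± 0.19) but not by its others (-0.57 and -0.46). Endothelial markers (18.3 to 21.8 and 18.2 to 20.5) and mast cell markers (1.52 to 1.60 and 1.32 to 1.60) overlapped between the strains, with Cpa3 and Tpsb2, which define mast cells, below the filter. Neutrophil markers were 0.406 to 1.73 in C57BL/6J and 0.519 to 13.4 in BTBR, the highest in BTBR mouse 2.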

How the data were processed

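The authors deposited 1 Agilent scanner file per mouse with intensity values on a linear scale, and per the file headers Feature Extraction 10.7.3.1 produced them, while the submitters' processing notes give version 9.1. Their series matrix holds deposited log2 values (array medians 8.82 to 8.83) with scaling and centring not given in the sources used here, and served as an alternative. Levels are log2 of the processed signal, with the 75th percentile of the 41174 non-control probes subtracted on each array. Flagged spots were left out where a probe had another spot, and a probe entered when well above background on at least 3 of 6 arrays, whatever the strain. Strains were compared per probe with limma 3.58.1 in R 4.3.3 (lmFit, eBayes, Benjamini-Hochberg over 30011 probes), without covariates. The fit was tested on simulated data with independent normal noise per probe. These data held no slide or background effects, so the simulation cannot speak to those. The number of arrays limits the precision. Other pathway genes were named through RefSeq accessions, symbols or synonyms of GRCm38.p6 (names only), each by its brightest entered probe.

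Members and lists were chosen with earlier results of these data known. All members are named. Of the other pathway genes, those past the test and the widest difference of each role are named, and others are marked in the text. Mgll, Pla2g4a, Cysltr1, Ltb4r1, Lta4h and Alox15 were added after their values were seen. Probes with only a clone, predicted or accession name were not ranked among the most alike. Replicate numbers did not pair the mice (correlations of deviations 0.02, -0.24 and -0.15).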

Additional observations from a re-analysis of the deposited data

How the results depend on the processing

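In the main analysis 1632 probes of 30011, 3 of the 15 eicosanoid enzyme probes and 4 of 52 other pathway genes passed. Normexp background correction (offset 50) gave 170, 1 (Alox8) and 0, and 74.1% of its calls were lower in BTBR against 59.7%. The cause, and the part of the offset in it, was not tested. With the authors' values 5 eicosanoid enzyme probes passed, with array weights 3928 probes, 5 and 13, where the weights stopped before convergence. The replicate block, which leaves fewer residual degrees of freedom, gave 922 probes and 2 pathway genes. No filter, with more probes tested, gave 2 pathway genes. The cause of these lower counts was not tested. The replicate block kept the calls of Alox8, both Hpgd probes and Cmklr1, and lost those of Pla2g4b (adjusted p = 0.0738), Cysltr2 (0.123) and Mgst2 (0.14), while Slco2a1 passed (0.0439). Slide as a block lost Mgst2. Leaving out 1 mouse gave 858 (without BTBR 1) to 1472 probes, 3 to 4 eicosanoid enzyme probes and 1 to 4 pathway genes. Without C57BL/6J 1 or 2 there were 951 and 888 probes. Cysltr2 reversed with normexp (-0.11). Slide as a block (1563 probes), scaling by the median (1629), quantile normalization (1797) and flagged spots kept (1634) left the calls of Alox8 and both Hpgd probes as they were. Differences near the dimmest signals are the least certain.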
